A study of Mus musculus with 12 samples.

Results

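PAF1c, the RNA polymerase II associated factor complex that contains CTR9 and CDC73, travels with elongating polymerase and helps chromatin modifying enzymes act on transcribed genes. The 10 genes described here encode such enzymes and their partners, and were taken by symbol from the tables of the shCTR9, shCDC73 and shMYC experiments. All 10 had a row in each table, among 11591 genes that the 3 tables share. The RNA came from cultured KPC cells, which were derived from a mouse pancreatic tumor. The cells carried a doxycycline-inducible shRNA against Ctr9, Cdc73 or Myc, or against luciferase as the control shared by all comparisons. Every line, the control line included, received doxycycline at 1 µg/ml for 48 h according to the labels. The shRNAs were introduced with lentivirus, and 3 libraries were sequenced per line.

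Histone H2B is ubiquitylated behind elongating polymerase by the conjugating enzymes UBE2A and UBE2B, mammalian homologs of yeast Rad6, with the RING ligase pair RNF20 and RNF40 and their adaptor WAC. USP22, in the SAGA complex, removes the mark. Ubiquitylated H2B favors methylation of H3K4 by SET1 and MLL type enzymes such as SETD1A and KMT2A and of H3K79 by DOT1L, while SETD2 trimethylates H3K36 in association with the polymerase.

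The value used for each gene is the authors' mean in a table, in CPM, read counts scaled to a library total of 1000000, taken over the libraries of one depletion and those of shLuciferase. It is called here the shCTR9, shCDC73 or shMYC mean. The tables hold no value per library for either group, so no mean has an SD, no difference was tested, and whether a difference exceeds the spread between replicates cannot be said. The library totals behind the means are not in the tables. The study lists a sequencing depth for each library, with 1 shCTR9 library deeper than the others, but these depths were not used here because the means cannot be separated into libraries. Because the methods compare every depletion with the same control, the difference between 2 such means should reflect the depleted libraries. That difference is diluted by the control values that both means share. The paper calls its MYC depletion results previous ones and used shMYC cells described in earlier work. For pairs with shMYC, a difference between experiments or lines can therefore not be told apart from MYC depletion. Each depletion used its own shRNA line. Between the shCTR9 and shCDC73 means, a difference between lines can likewise not be told apart from the depletions. If the control values are the same in both tables and all libraries count equally, which was not tested, the difference between the depleted levels is the difference between the means multiplied by 2. The ratio of the depleted levels is then no smaller than the ratio of the means.

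Each targeted gene had its lowest mean in its own table. For Ctr9 the shCTR9 mean was 16.5 CPM, against 41.7 CPM in the shCDC73 table and 25.0 CPM in the shMYC table. Cdc73 had 21.9 CPM in the shCDC73 table, against 41.2 CPM in the shCTR9 and 37.3 CPM in the shMYC table. Myc had 118 CPM in the shMYC table, against 155 CPM in the shCTR9 and 178 CPM in the shCDC73 table. The epithelial keratin genes Krt8 and Krt19 ranged between 2779 and 3929 CPM and between 1454 and 2123 CPM, both lowest in the shCDC73 table. A further keratin gene, Krt7, had 243 CPM in the shCTR9 and 109 CPM in the shMYC table but no row in the shCDC73 table. Why that row is missing was not tested. Of 20 marker genes of immune, endothelial, fibroblast and acinar cells, 2 had a row in any table, the fibroblast gene Pdgfra with 1.28 to 1.81 CPM in 2 tables and the acinar gene Cela1 with 3.66 to 6.90 CPM in all 3. The epithelial marker Epcam had no row in the tables used here, and the epithelial regulator gene Sox9 differed widely, with means of 12.7 CPM in the shCTR9, 18.5 CPM in the shCDC73 and 3.56 CPM in the shMYC table. Whether this bears on the genes below was not tested.

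The 2 conjugating enzyme genes differed in how their means moved. Ube2a (gene ID 22209, chrX:36874295-36884222 in GRCm38, the assembly called mm10) had 77.3 CPM in the shCTR9 table, 73.2 CPM in the shCDC73 table and 60.7 CPM in the shMYC table. Both PAF1c means were above the shMYC mean, by 0.35 and 0.27 on the log2 scale. Under the condition above, Ube2a levels in CTR9-depleted and in CDC73-depleted cells were 33.2 and 24.9 CPM higher than in MYC-depleted cells, or at least 1.27-fold and 1.20-fold higher. Ube2b (gene ID 22210, chr11:51985138-52004145) had 104, 109 and 111 CPM in the shCTR9, shCDC73 and shMYC tables. The largest difference between any 2 of these means was 0.09 on the log2 scale. The shMYC mean of Ube2b was the highest as deposited, but relative to the median difference of all genes the shCTR9 and shCDC73 means were 0.03 and 0.13 above it, so that this order turned with the scaling.

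The sequence just before the start of each of these genes is shown because they encode closely related enzymes, and because MYC with its partner MAX binds the E-box CACGTG. RefSeq promoter windows in build GRCm38.p6 were found for 8 of the 10 genes, in 10 windows. The search covered the 250 bases before the start, and CACGTG reads the same on both strands. It occurred in 1 of the 10 windows, against 6.02% of 32851 windows of all genes. That window precedes the more upstream of the 2 Ube2b starts in the window table, which lie 295 bases apart. Both starts are inside the RefSeq gene span printed above, this one 3.36 kb from its 5′ end, and the Rnf20 start is likewise 6.62 kb inside its span. The Ube2b window holds 3 copies, beginning 107, 76 and 10 bases before the start. The other Ube2b window and that of Ube2a had none. Capitals mark CACGTG, and both sequences are written 5′ to 3′ along the gene's own strand, chr11:52000787-52001036 (minus strand) for Ube2b and chrX:36874045-36874294 (plus strand) for Ube2a. A match is a description of the letters and not a binding site.
Ube2b: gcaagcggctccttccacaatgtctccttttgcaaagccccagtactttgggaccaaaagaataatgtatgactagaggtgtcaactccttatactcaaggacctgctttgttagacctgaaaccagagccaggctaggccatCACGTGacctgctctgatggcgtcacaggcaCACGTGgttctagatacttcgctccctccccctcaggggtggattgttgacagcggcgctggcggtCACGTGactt
Ube2a: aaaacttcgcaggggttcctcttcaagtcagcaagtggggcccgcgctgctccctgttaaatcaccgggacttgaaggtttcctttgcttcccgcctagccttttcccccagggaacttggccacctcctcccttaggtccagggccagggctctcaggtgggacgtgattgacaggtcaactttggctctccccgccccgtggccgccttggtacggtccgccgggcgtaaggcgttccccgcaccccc

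The ligase genes Rnf20 and Rnf40 shared an order of means, shCDC73 highest and shMYC lowest. Rnf20 (gene ID 109331, chr4:49632005-49656887) had 42.8 CPM in the shCTR9 table, 55.6 CPM in the shCDC73 table and 38.3 CPM in the shMYC table. The shCDC73 mean stood 0.54 above the shMYC mean on the log2 scale, and the shCTR9 mean stood 0.38 below the shCDC73 mean. With equal controls, Rnf20 levels in CDC73-depleted cells were 34.7 CPM, and at least 1.45-fold, higher than in MYC-depleted cells. The level in CTR9-depleted minus that in CDC73-depleted cells was −25.6 CPM, at least 1.30-fold apart. Rnf40 (gene ID 233900, chr7:127588698-127603605) encodes the ligase partner and had 78.2, 89.5 and 70.9 CPM in the shCTR9, shCDC73 and shMYC tables. Its shCDC73 mean was 0.34 above the shMYC mean, with depleted levels at least 1.26-fold apart. Wac (gene ID 225131, chr18:7868825-7929028), the adaptor that links the ligase to polymerase, had 64.5, 66.7 and 69.4 CPM in the same order. Its highest and lowest mean lay 0.10 apart on the log2 scale. The shMYC mean of Wac was the highest as deposited, but relative to the median difference of all genes the shCTR9 and shCDC73 means were 0.01 and 0.10 above it.

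**Figure D1:**
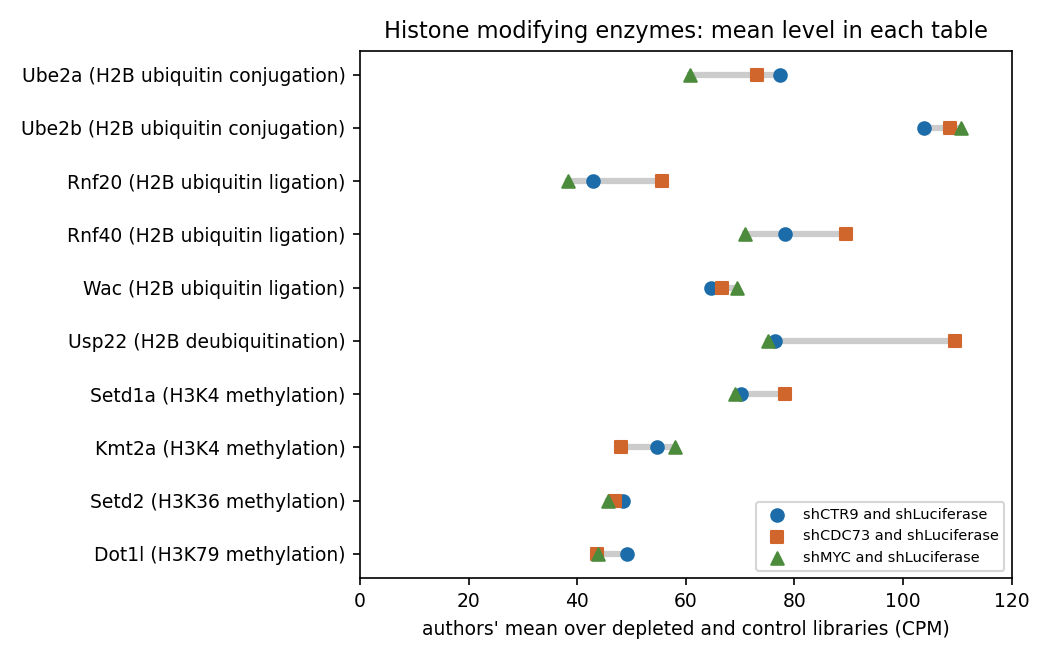
Authors' mean level (CPM, linear x axis) of the 10 genes (y axis) in the shCTR9, shCDC73 and shMYC tables, each over depleted and control libraries; the gray bar joins the lowest and highest mean of a gene. Usp22 has the longest bar in CPM, with the shCDC73 mean at its right end, while the bars of Setd2 and Wac are the shortest.

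Usp22, the gene for the enzyme that takes ubiquitin off H2B, had the largest spread of the 10. Usp22 (gene ID 216825, chr11:61151781-61175059) had 76.5 CPM in the shCTR9 table, 109 CPM in the shCDC73 table and 75.0 CPM in the shMYC table. The shCTR9 and shMYC means lay 0.03 apart on the log2 scale, and the shCDC73 mean stood 0.52 and 0.54 above them. With equal controls, Usp22 levels in CDC73-depleted cells were 68.9 CPM, and at least 1.46-fold, higher than in MYC-depleted cells. The level in CTR9-depleted minus that in CDC73-depleted cells was −66.0 CPM, at least 1.43-fold apart. Since no depleted level can be negative, the control level can then be at most 150 CPM. Rnf20, which encodes a ligase that places the mark, and Usp22, which encodes an enzyme that removes it, had their highest mean in the same table. The shCDC73 mean was the highest for 4 of the 10 genes and for 27.5% of all genes as deposited. With each table shifted by its median difference from the shMYC table, it was 6 of the 10 and 36.1%. Outside the lists of this pathway, the genes with 3 means closest to those of Usp22 were Bola1 and Kansl2, at Euclidean distances of 0.13 and 0.14 on the log2 scale, over only 3 tables.

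The H3K4 methyltransferase genes went different ways. Setd1a (gene ID 233904, chr7:127777389-127800122) encodes the catalytic subunit of a SET1 complex and lies 174 kb from the end of Rnf40. Its means were 70.2, 78.2 and 69.0 CPM in the shCTR9, shCDC73 and shMYC tables. The order was that of Rnf40, with a smaller distance of 0.18 between the highest and the lowest. Kmt2a (gene ID 214162, chr9:44803355-44881352), the MLL1 gene, had 54.6, 48.0 and 58.1 CPM in these tables. As deposited, it was the only one of the 10 whose shCDC73 mean was more than 0.2 below its shMYC mean, by 0.28. With equal controls, that corresponds to depleted levels 20.2 CPM apart. Among all genes 45.9% were likewise more than 0.2 lower. Relative to the median difference of all genes, Kmt2a stood at −0.12, within that limit.

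The genes for the H3K36 and H3K79 enzymes had means that lay close together as deposited. Setd2 (gene ID 235626, chr9:110532500-110618633) had 48.5 CPM in the shCTR9 table, 47.0 CPM in the shCDC73 table and 45.7 CPM in the shMYC table. Its spread of 0.08 on the log2 scale was the smallest of the 10 as deposited. Dot1l (gene ID 208266, chr10:80755101-80795461) had 49.2, 43.6 and 43.9 CPM in the same order. Its shCTR9 mean stood 0.17 above the shCDC73 and 0.16 above the shMYC mean. Relative to the median difference of all genes, the shCTR9 means of Setd2 and Dot1l were 0.204 and 0.28 above their shMYC means. The genes with means nearest to those of Setd2 outside the lists were Tfam and Pax2, both at a distance of 0.03.

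Per kilobase of the longest GENCODE transcript, and averaged over the 3 tables, the conjugating enzyme genes were the most abundant of the 10. Ube2b had 60.1 and Ube2a 40.6 CPM per kilobase. Usp22 followed with 19.6, Rnf40 with 15.1, Wac with 12.8, Setd1a with 11.2 and Rnf20 with 10.6 CPM per kilobase. The lysine methyltransferases with the longest transcripts came last, Dot1l with 6.69, Setd2 with 5.63 and Kmt2a with 3.25 CPM per kilobase. The values of Rnf20 over the 3 tables, 8.88 to 12.9 CPM per kilobase, overlapped those of its neighbors Setd1a, at 10.6 to 12.1, and Wac, at 12.4 to 13.3. Among all genes of a table, the CPM levels of the 10 lay between percentile 55.0, for Rnf20 in the shMYC table, and percentile 84.2, for Usp22 in the shCDC73 table.

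How far the means of the 10 genes lay apart was compared with all genes. A difference of more than 0.2 on the log2 scale, a ratio of means of 1.15, was used as a threshold for counting. Between all pairs of tables the means of 5 of the 10 genes (Ube2b, Wac, Setd1a, Setd2 and Dot1l) stayed within this limit as deposited, against 16.3% of the 11591 shared genes. With each table shifted by its median difference from the shMYC table, it was 3 of the 10 (Ube2b, Wac and Kmt2a), against 16.8%. The distance between a gene's highest and lowest mean had a median of 0.23 over the 10 genes and of 0.43 over all genes, or 0.39 over the 8509 genes with at least 10 CPM in every table. After the shift the medians were 0.31 over the 10 genes and 0.42 over all genes. The shMYC mean was the lowest of the 3 for 6 of the 10 genes and for 27.0% of all genes as deposited, and for 9 of the 10 and 39.3% after the shift. It was the highest for 3 of the 10 and 52.0% of all genes as deposited, and for none of the 10 and 39.3% after the shift.

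Comparing the PAF1c depletions with each other, the shCTR9 mean differed from the shCDC73 mean by more than 0.2 for 2 of the 10 genes, Rnf20 and Usp22, against 46.6% of all genes. Both genes were lower in the shCTR9 table, as were 21.8% of all genes, and no member was higher, against 24.8%. Rnf40, at −0.19, lay just inside the limit, and just past it, at −0.201, relative to the median of all genes. The median difference was −0.06 over the 10 genes and 0.01 over all genes. Between the shCTR9 and the shMYC mean 1 of the 10 genes passed this limit, against 61.9% of all genes. It was Ube2a, higher in the shCTR9 table as were 19.8% of all genes, and no member was lower, against 42.0%.

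Between the shCDC73 and the shMYC mean 5 of the 10 genes differed by more than 0.2, against 68.8% of all genes. Usp22, Rnf20, Rnf40 and Ube2a were higher in the shCDC73 table, as were 22.9% of all genes. Kmt2a was lower, as were 45.9% of all genes. The differences of Usp22 and Rnf20 lay at percentiles 92.8 and 92.7 of all genes. The distance between their highest and lowest mean, without regard to direction, lay at percentiles 64.4 and 63.9 only.

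Genes on the whole had higher means in the shMYC table. The median difference of all genes was −0.12 for the shCTR9 minus the shMYC mean and −0.15 for the shCDC73 minus the shMYC mean, and 0.01 between the PAF1c tables. Relative to these medians, Ube2a, Dot1l, Rnf20, Rnf40 and Setd2 were more than 0.2 higher in the shCTR9 than in the shMYC table, 5 of 10 against 29.8% of all genes, and none was lower, against 31.3%. For the shCDC73 table relative to the shMYC table, Usp22, Rnf20, Rnf40, Ube2a and Setd1a were higher, 5 of 10 against 33.6% of all genes, and none was lower, against 33.0%. Kmt2a, at −0.12 relative to that median, was then within the limit.

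**Figure D2:**
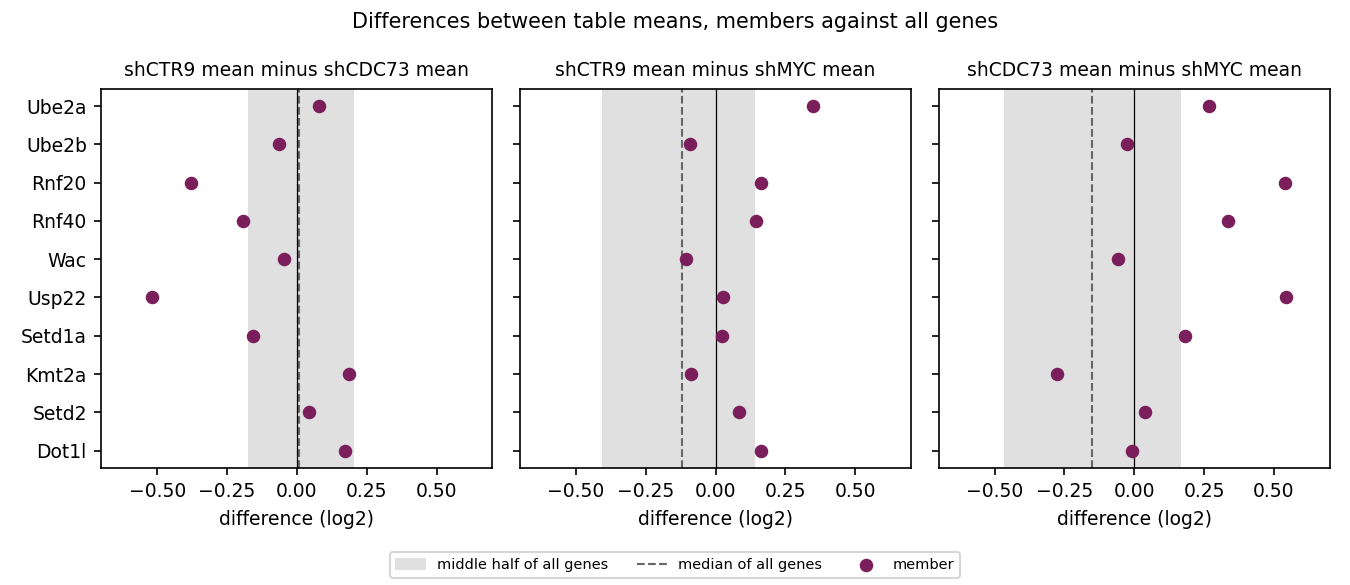
Difference between the means of 2 tables (log2, x axis) for the 10 genes (points, y axis) in 3 pairs of tables. The shaded band runs between the quartiles of all 11591 genes. The dashed line is their median, which lies at −0.12 and −0.15 in the pairs with shMYC. Usp22, Rnf20 and Rnf40 are outside the band in both pairs with shCDC73.

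PAF1c acts during elongation, so gene length was set beside the differences. The 10 genes span 9.93 kb for Ube2a to 86.1 kb for Setd2 in the RefSeq annotation. Over all genes with a length, the median of the shCTR9 minus the shMYC mean was 0.05 in the shortest of 5 equal groups and −0.27 in the longest. For the shCDC73 minus the shMYC mean these medians were 0.10 and −0.27. All 10 members lay above the median of their length group for shCTR9 against shMYC. For shCDC73 against shMYC it was 9 of 10, with Kmt2a at −0.28 beside a group median of −0.27. Between the shCTR9 and the shCDC73 mean 4 of the 10 lay above. Of the longest genes, Setd2 stood at 0.08 for shCTR9 against shMYC and Kmt2a at −0.09.

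**Figure D3:**
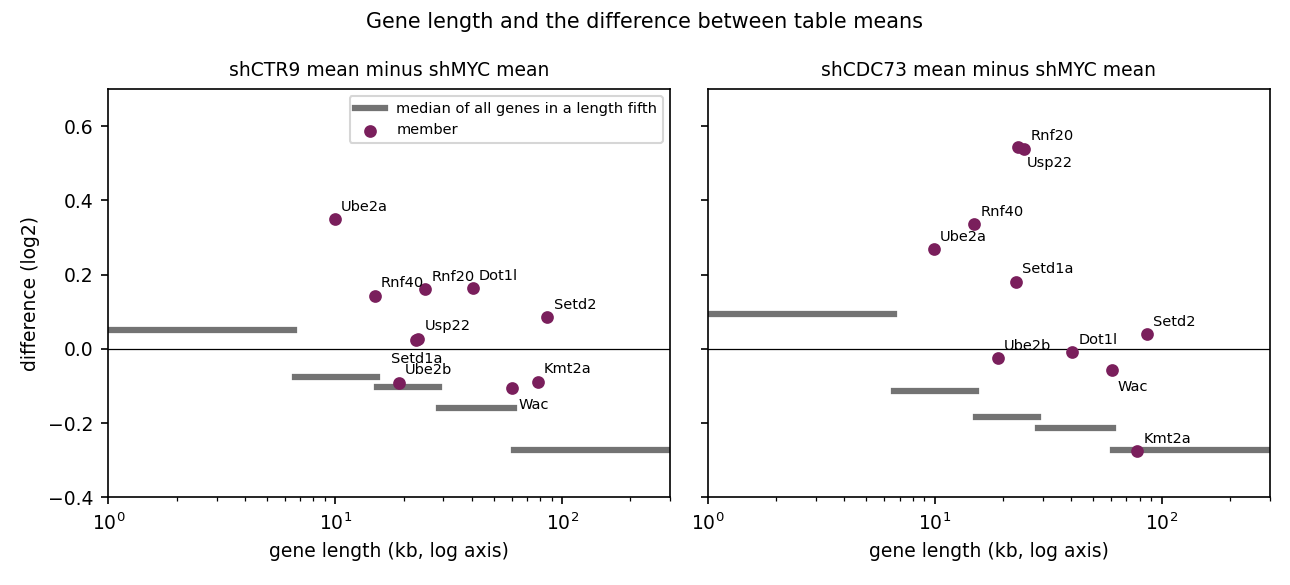
Difference between table means (log2, y axis) against gene length (kb, log x axis, the outermost bars are cut at the ends of the axis) for the 10 genes (points) and the median of all genes in each of 5 length groups (gray bars), for shCTR9 (left) and shCDC73 (right) against shMYC. The gray bars step down with length, and every point lies above its bar on the left and all but Kmt2a on the right.

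The wider pathway was described with lists of genes that work beside these enzymes, counted relative to the median of all genes. In these counts 33.6% of all genes were higher and 33.0% lower for shCDC73 against shMYC, and as deposited 22.9% and 45.9%. COMPASS core and SET1 or MLL subunit genes, the scaffolds and sister enzymes of H3K4 methylation, were 14 of 20 higher and none lower for shCDC73 against shMYC, with a median of 0.32. As deposited, without that adjustment, 9 of the 20 were higher and 3 lower. Men1, which encodes the MLL partner menin, had 96.3 CPM in the shCTR9, 116 CPM in the shCDC73 and 80.7 CPM in the shMYC table. Psip1, whose product tethers menin and MLL to chromatin, had 41.3, 53.0 and 37.6 CPM. Both genes thus had the order of means seen for Rnf20. For shCTR9 against shMYC 13 of the 20 COMPASS genes were higher and none lower, against 29.8% and 31.3% of all genes, or 7 and none as deposited, against 19.8% and 42.0%.

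Of the 6 PAF1c subunit genes, 4 were higher and 1 lower for shCDC73 against shMYC, with the same counts as deposited. Among all genes 33.6% were higher and 33.0% lower, or 22.9% and 45.9% as deposited. The lower PAF1c gene was the target Cdc73 itself. Besides Ctr9 the higher ones were Paf1 with 50.7, 54.2 and 37.7 CPM, Leo1 with 58.3, 62.4 and 43.8 CPM and Rtf1 with 60.0, 62.3 and 45.9 CPM in the shCTR9, shCDC73 and shMYC tables, named because the count turns on them. With equal controls, the Ctr9 level in CTR9-depleted minus that in CDC73-depleted cells was −50.3 CPM, while the control level could be at most 33.0 CPM. Of 8 H2B deubiquitination genes listed 6 had a row in all 3 tables, and 3 of these were higher and 1 lower for shCDC73 against shMYC, or none and 1 as deposited. The lower one was Usp27x, a paralog of Usp22 that had 2.19, 2.85 and 4.69 CPM in the shCTR9, shCDC73 and shMYC tables. Eny2, a subunit of the SAGA deubiquitinase module, had 88.8, 71.8 and 65.0 CPM, with its highest mean in the shCTR9 table, where that of Usp22 was in the shCDC73 table.

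For shCDC73 against shMYC 33.6% of all genes were higher and 33.0% lower, or 22.9% and 45.9% as deposited. Partners of RAD6 enzymes other than RNF20 and RNF40 were 2 of 5 higher and 1 lower, or 1 and 2 as deposited. The gene lower in both counts was Rad18, a ligase for PCNA at stalled forks, with 14.1, 13.5 and 21.2 CPM in the shCTR9, shCDC73 and shMYC tables. Shprh, another ligase of that pathway, had 11.1, 13.1 and 9.75 CPM. DOT1L partner genes were 2 of 6 higher and 2 lower, or 2 and 4 as deposited. Mllt1, which encodes the reader ENL, had 133, 155 and 104 CPM, whereas Aff1, a super elongation complex scaffold, had 60.9, 59.8 and 83.6 CPM. H3K36 methyltransferase genes other than Setd2 were 2 of 6 higher and 1 lower, or none and 3 as deposited, with Setmar at 1.92, 1.95 and 3.47 CPM and Ash1l at 66.3, 56.1 and 67.0 CPM.

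The genes for the opposing demethylases were counted in the same way. Over all genes 33.6% were higher and 33.0% lower for shCDC73 against shMYC, or 22.9% and 45.9% as deposited. H3K4 demethylase genes were 3 of 6 higher and 1 lower for shCDC73 against shMYC, or 2 and 2 as deposited, with Kdm1b at 15.9, 18.2 and 23.1 CPM and Kdm5d at 3.86, 3.89 and 5.57 CPM in the shCTR9, shCDC73 and shMYC tables. For shCTR9 against shCDC73 as deposited, 3 of the 6 were lower and none higher, against 21.8% and 24.8% of all genes. These were Kdm5a, Kdm5b and Kdm5c, at −0.43, −0.47 and −0.30, and not Kdm1b or Kdm5d. The same 3 genes were those higher for shCDC73 against shMYC relative to the median of all genes. H3K36 demethylase genes were 4 of 5 higher and none lower for shCDC73 against shMYC, but none of the 5 passed in either direction as deposited. Kdm2b had 11.1, 15.9 and 14.4 CPM and Kdm4a 49.1, 55.9 and 59.2 CPM.

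**Figure D4:**
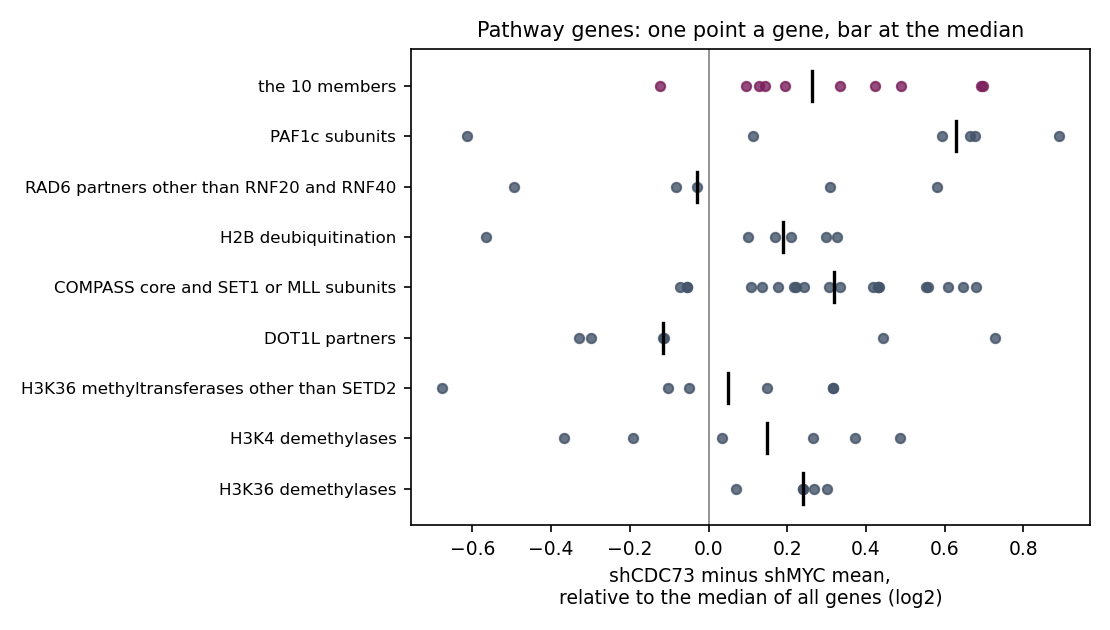
Difference between the shCDC73 and the shMYC mean relative to the median of all genes (log2, x axis) for the 10 genes and for 8 lists of pathway genes (y axis), 1 point per gene with a bar at the list's median. The bar stands at 0.26 for the 10 genes and at 0.32 for the COMPASS genes.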

How the data were processed

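Poly(A) RNA of 12 libraries, 3 per line, was sequenced by the authors from strand-specific libraries. Per the labels and the methods, reads were mapped to mm10 with Bowtie2 version 2.3.4.1, scaled to the mapped reads of the smallest sample and counted per gene with featureCounts, and genes with fewer than the authors' minimum of reads were removed. The gene annotation and the strand setting are not given in the sources used here, and Bowtie2 does not split reads over introns. The deposited log2 mean CPM of each gene, as the authors' edgeR run gave it, is the unit used, from 11982, 12128 and 12100 genes for shCTR9, shCDC73 and shMYC. Its linear values sum to 999965 to 1005680 CPM in the 3 tables. The tables' other columns hold the authors' own comparison with shLuciferase (fold change, likelihood ratio, p-value and adjusted p-value) and were not used.

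Means were subtracted between tables over the 11591 genes in all 3, as deposited and relative to the median difference, with Python 3.11.15, numpy 2.4.6 and pandas 2.3.3. The code for these differences was tested on simulated data. The simulated means shared the same control and depth by construction, so whether the deposited means do was not tested. With 1 mean per table no statistical test between groups was possible. The library depths that the study lists were not used. Alternatives were thresholds of 0.1 and 0.3, tables rescaled to a total of 1000000 CPM, a minimum of 10 CPM and median transcript length. Gene positions and lengths are from RefSeq GRCm38.p6 (97.5% of shared genes) and transcript lengths from GENCODE M21. The members and lists were chosen with earlier results of these data known. All members and targets were named, and of each pathway list the 2 genes with the largest distance between means, together with the 2 genes whose means lay nearest to those of Usp22 and of Setd2. Krt8, Epcam, Cela1 and Pdgfra describe the cells. Krt7, Paf1, Leo1, Rtf1, Kdm5a, Kdm5b and Kdm5c were added after their values were seen.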

Additional observations from a re-analysis of the deposited data

How the results depend on the processing

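The counts of members more than 0.2 apart on the log2 scale depended on that threshold. At 0.1 they were 6 for shCTR9 minus shCDC73 (2 at 0.2) and 5 for shCTR9 minus shMYC (1 at 0.2). At 0.3 the count for shCDC73 minus shMYC was 3 (5 at 0.2). The share of all genes was counted only at 0.2, so the counts at 0.1 and 0.3 cannot be set against all genes. Centering on the median of all genes gave 5 for shCTR9 minus shMYC and, with Rnf40 added, 3 for shCTR9 minus shCDC73. For the latter pair the centered share of all genes was not counted. Centering moved all 20 single differences against shMYC by more than 0.1 and none of the 10 between the PAF1c tables. Rescaling the tables to a total of 1000000 CPM over shared genes moved none of the 30 by more than 0.1. The minimum of 10 CPM left all 10 members in place. With median instead of longest transcript length, 5 of the 10 genes kept their place in the order of levels per kilobase, Ube2b, Ube2a, Usp22, Wac and Kmt2a. Each target had its lowest mean in its own table also after rescaling. That setting and the shift of each table used for the distances between means were added after seeing the data. Replicate spread, the effect of depth and the effect of single libraries could not be examined from one mean per table. No paired analysis was possible because the columns carry no replicate values.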
